A study of Mus musculus with 40 samples.

Results

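The integrin and laminin genes are the protein-coding mouse genes for integrin subunits, which are adhesion receptors, and for laminin chains, which are the subunits of basement membrane proteins that many of these receptors bind. Members were taken by symbol alone, as Itga, Itgb, Lama, Lamb or Lamc followed by the number or letter of a subunit. No measured value decides whether a gene is a member, but these families were chosen with earlier results of these data known. The rule gave 37 of the 51789 genes in the count table. These are 18 integrin alpha subunits, 8 integrin beta subunits, 5 laminin alpha chains, 3 laminin beta chains and 3 laminin gamma chains.

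As background, an integrin is a pair of an alpha and a beta subunit at the cell surface, and the pair sets which matrix protein is bound. Talin, kindlin and the adaptors around them tie the beta subunit to actin, on which non-muscle myosin pulls. A laminin joins an alpha, a beta and a gamma chain, and laminins, type IV collagen, nidogen and perlecan build the basement membrane that melanoma cells meet at the base of the epidermis and around vessels. The integrin of Itgav with Itgb3 is known from invasive melanoma, and the integrin of Itga4 with Itgb1 binds fibronectin and Vcam1.

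The data are 3′ RNA sequencing libraries of cultured mouse melanoma cells, 40 in all and 2 for each of 20 groups. YUMM2.1 and YUMM1.7 are lines from Braf-mutant mouse melanomas that differ in further alleles, and YUMM2.1 also carries stabilized beta-catenin. YUMM2.1, YUMM1.7 and aC3 cells each received an empty vector (EV), WT-Bmal1, the circadian transcription factor, or dHLH-Bmal1, a form without its helix-loop-helix domain. The study describes lentivirus and a sort for GFP for YUMM2.1 and aC3 cells, and does not describe this step for YUMM1.7. aC3 is a single YUMM2.1 clone in which Bmal1 was disrupted by CRISPR, so that its 3 groups, EV included, share this deletion and the clone's history. By the study's methods, both YUMM2.1 and aC3 cells carried a luciferase reporter of the Bmal1 promoter before the constructs were added. YUMM2.1 cells of the 3 constructs also received a control hairpin (shNC) or 1 of 2 hairpins against Myh9, the heavy chain of non-muscle myosin IIA (shMyh9#2 and shMyh9#4), with selection in puromycin that the groups without a hairpin did not have. B16-F10, a line from another mouse melanoma, was sequenced as Ctrl and as Bmal1 KO, each a single clone obtained from another laboratory, so that clone and genotype cannot be told apart. The study calls duplicates of this kind biological replicates, and neither it nor the labels say what was grown separately, so the p-values measure the spread between these libraries.

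The library totals lay between 3643332 and 22970049 counts (median 10021164.5), and at the median 1 CPM is about 10 counts. CPM is a gene's count relative to the total of its library, with totals normalized by TMM over all libraries. Because a 3′ library reads about 1 fragment per transcript, CPM was compared between genes without division by length. Among the YUMM2.1 libraries without a hairpin, EV replicate 1 correlated with WT-Bmal1 replicate 1 at 0.9903 across 10445 genes and with EV replicate 2 at 0.9663. EV replicate 2 was likewise closest to WT-Bmal1 replicate 2, at 0.9889. Libraries that share a number and libraries with exchanged labels would look the same in these values. The study's own table of normalized expression holds the library labelled EV replicate 2 here under the name of WT-Bmal1 replicate 1 and the reverse, so the 2 sources contradict each other on these labels. Groups follow the deposited labels, and results that rest on these 2 doubted libraries are given as labelled, with the 2 labels exchanged and, in part, without both. Myh9 was lower with each hairpin in each construct, by 1.52, 2.04 and 1.69 on the log2 scale with shMyh9#2 in EV, WT-Bmal1 and dHLH-Bmal1 cells and by 0.52, 0.93 and 0.42 with shMyh9#4. Arntl, the gene of Bmal1, had 15.3 and 10.7 CPM in B16-F10 Ctrl and, under the Bmal1 KO label, 13.4 and 11.4 CPM, so that its 3′ counts do not check these labels, since a 3′ tag outside a deleted part cannot show the deletion. In YUMM2.1 cells Arntl was higher than in EV by 1.54 on the log2 scale with dHLH-Bmal1 (edgeR adjusted p = 0.00952) and by 0.10 with WT-Bmal1 (edgeR adjusted p = 1.0). In aC3 EV it was higher than in YUMM2.1 EV by 1.08 (edgeR adjusted p = 0.021), and under the WT-Bmal1 label it was lower than in aC3 EV, at 18.2 and 17.4 CPM against 32.8 and 30.3 (log2 -0.83, edgeR adjusted p = 0.00356). Whether these counts read the constructs at all is not given in the sources used here, so they do not check the construct labels. The melanocyte gene Sox10 had at least 369.5 CPM in B16-F10, YUMM2.1 EV and aC3 libraries and at most 1.51 in YUMM1.7 libraries. Of the 9 listed melanocyte genes, the 8 besides Sox10 summed to 24780 and 26200 CPM in B16-F10 Ctrl. They summed to 14.9 and 14.3 CPM in YUMM2.1 EV and to 12.6 and 13.6 in YUMM1.7 EV. By these genes YUMM2.1 EV lay near YUMM1.7 EV and far below B16-F10 Ctrl. Of the markers of leukocytes, endothelium, keratinocytes and platelets, Cd3e, Tek, Emcn, Krt5, Krt1 and Ppbp had at most 3 counts in every library, while Laptm5, Gp1bb, Cdh5 and Pecam1 reached 86.2, 68.0, 19.97 and 13.4 CPM in some library.

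RefSeq's GRCm38.p6 table of promoters, 250 bases before to 50 bases after a listed start, held windows for 23 of the 37 members. The 6 windows printed here belong to Itga1 and Itga8, which were lower with dHLH-Bmal1 in YUMM2.1 cells, to Itga3, which was higher, to Lamb1, the called member of the B16-F10 comparison, and to Itga9, counted almost exclusively in B16-F10. They lie at chr13:115101915-115102214 on the minus strand, chr2:12301895-12302194 on the minus strand, chr11:95076665-95076964 and chr11:95069149-95069448 on the minus strand, chr12:31265043-31265342 on the plus strand and chr9:118711442-118711741 on the plus strand. Each is written 5′ to 3′ along its gene, and capitals mark a match to TGANTCA, a loose form of the AP-1 site TGAGTCA. The table lists 2 starts for Itga3, the first at the start of the annotated gene and the second inside it, and the window of Itga9 also lies inside the annotated gene rather than at its start.
Itga1: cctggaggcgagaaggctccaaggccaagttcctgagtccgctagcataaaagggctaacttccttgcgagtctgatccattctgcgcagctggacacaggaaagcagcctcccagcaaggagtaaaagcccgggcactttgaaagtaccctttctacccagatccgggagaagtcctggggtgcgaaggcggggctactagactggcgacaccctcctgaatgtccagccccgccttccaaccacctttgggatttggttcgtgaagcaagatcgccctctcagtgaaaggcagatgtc
Itga8: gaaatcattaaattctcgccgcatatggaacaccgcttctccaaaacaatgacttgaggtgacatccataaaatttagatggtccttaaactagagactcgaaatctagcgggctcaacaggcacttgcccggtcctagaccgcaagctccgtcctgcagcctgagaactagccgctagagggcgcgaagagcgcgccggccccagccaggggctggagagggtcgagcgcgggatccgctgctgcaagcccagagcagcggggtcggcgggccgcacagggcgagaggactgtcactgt
Itga3, start of the gene: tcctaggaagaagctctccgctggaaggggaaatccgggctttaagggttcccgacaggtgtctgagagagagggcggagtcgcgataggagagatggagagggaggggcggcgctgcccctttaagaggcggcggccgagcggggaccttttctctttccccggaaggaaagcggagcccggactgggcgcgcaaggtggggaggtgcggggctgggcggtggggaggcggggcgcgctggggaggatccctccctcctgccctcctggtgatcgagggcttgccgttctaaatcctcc
Itga3, inside the gene: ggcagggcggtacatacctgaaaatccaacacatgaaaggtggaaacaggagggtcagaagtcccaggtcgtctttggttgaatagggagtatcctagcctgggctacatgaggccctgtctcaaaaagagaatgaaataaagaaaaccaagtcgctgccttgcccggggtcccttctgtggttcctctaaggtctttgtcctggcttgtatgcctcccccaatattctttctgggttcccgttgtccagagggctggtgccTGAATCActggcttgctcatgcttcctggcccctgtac
Lamb1: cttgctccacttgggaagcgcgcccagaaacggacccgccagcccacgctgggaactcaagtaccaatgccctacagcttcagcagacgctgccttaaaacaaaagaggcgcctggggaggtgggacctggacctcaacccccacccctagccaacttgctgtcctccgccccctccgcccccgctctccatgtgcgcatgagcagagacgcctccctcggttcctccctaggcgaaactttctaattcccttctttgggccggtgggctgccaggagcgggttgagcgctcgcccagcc
Itga9: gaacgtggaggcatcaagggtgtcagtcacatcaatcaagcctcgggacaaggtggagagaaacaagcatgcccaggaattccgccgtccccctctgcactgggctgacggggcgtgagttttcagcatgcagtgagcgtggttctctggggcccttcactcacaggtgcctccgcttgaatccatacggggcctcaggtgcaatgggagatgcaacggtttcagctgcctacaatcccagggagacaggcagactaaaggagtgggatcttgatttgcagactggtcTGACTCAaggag
Motifs were searched on both strands. CACGTG, the E-box of Bmal1 and Clock, was in 0 of the 26 member windows and in 7.15% of all 32851 windows of this length. TGANTCA was in 7.81% of all windows and, among members, in a window of Itga3 (the one inside the gene), Itga9 and Itgax. The stricter TGAGTCA, or its reverse complement TGACTCA, was in 5.2% of all windows and in a window of Itga9 and Itgax, but not of Itga3. The CArG box of SRF was in 1.63% of all windows and in a window of Itgb6 and Lama2. A match is a stretch of letters and no evidence of binding, and a window without a match says nothing of the factor. The median GC content was 58.9% over the member windows and 52.7% over all windows.

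Itgb1, the beta subunit shared by most laminin, collagen and fibronectin receptors, had the highest level of the members, from 249 to 836 CPM across the 40 libraries. Itga6, the alpha subunit of laminin receptors, ranged from 97.4 to 676 CPM. Itga4 and Lamb1 also had a median over libraries of at least 100 CPM, so that 4 members were at this level, 10 members lay between 10 and 100 CPM, 8 between 1 and 10 CPM and 15 under 1 CPM. Itga4 ranged from 0.362 to 330 CPM and Lamb1 from 1.99 to 495 CPM, the first lowest in YUMM1.7 and the second in B16-F10 Ctrl. The leukocyte integrin subunits Itgad, Itgae, Itgal, Itgam and Itgax, together with Itga11, Itgb6, Lama1, Lama2, Lama3 and Lamc3, were under 1 CPM in every library and were tested in no comparison. Itgax, Itgb6, Lama1 and Lama3 had at most 3 counts in every library, so they were not detectable at this depth. The heat map of levels shows this order and the contrast between lines.

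**Figure D1:**
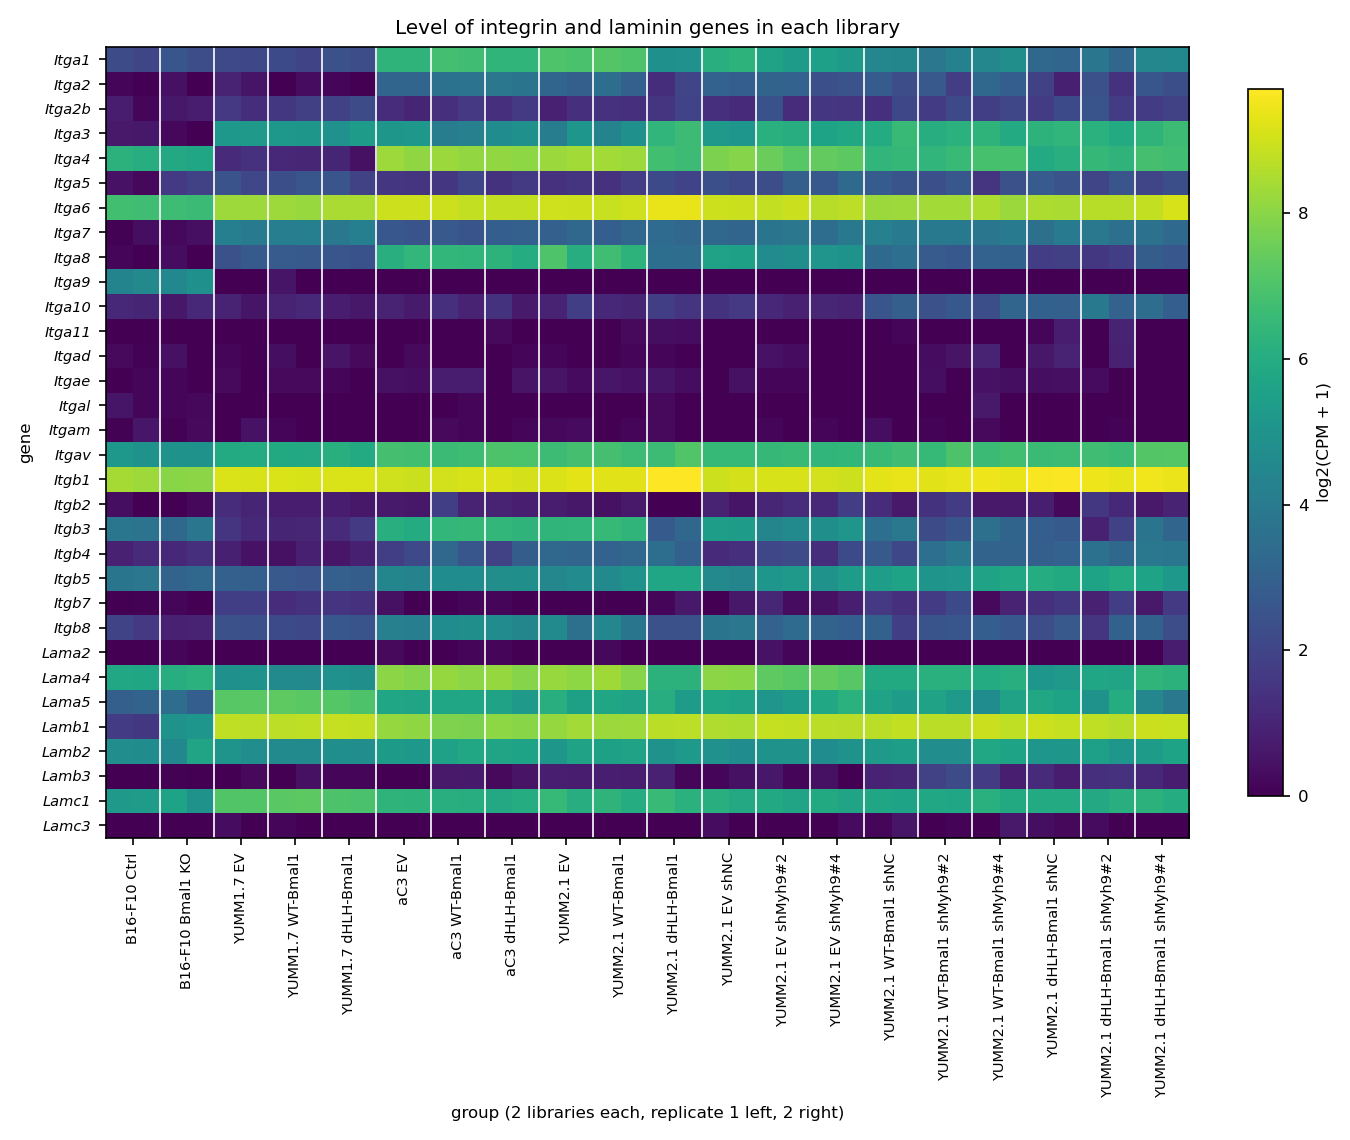
Level of integrin and laminin genes with over 3 counts in some library, as log2(CPM + 1) on the colour scale, in each of the 40 libraries, ordered by cell line and construct with the 2 libraries of a group side by side. Itgb1 and Itga6 are high in every line, Itga9 is seen in B16-F10, and Itga4, Itga1, Itga8, Itgb3 and Lama4 are high in YUMM2.1 EV and aC3 and lower in YUMM1.7 and YUMM2.1 dHLH-Bmal1 libraries.

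The control groups of the lines differed widely in these genes. In YUMM1.7 EV against YUMM2.1 EV, 17 of 25 tested members passed edgeR's test (12 lower and 5 higher), against 37.1% of all tested genes (17.8% higher and 19.3% lower). The median log2 fold change was -0.51 over the members and 0.00 over all genes. Itga4 (chromosome 2, 79255426 to 79333123, overlapped on the other strand by Cerkl) had 306 and 328 CPM in YUMM2.1 EV and 1.24 and 1.59 in YUMM1.7 EV, 223-fold lower (log2 -7.80, SE 0.17, edgeR adjusted p = 4.5e-09). Itgb3 (chromosome 11, 104608000 to 104670476) had 81.4 and 82.9 CPM against 1.77 and 1.12 (log2 -5.81, SE 0.18, edgeR adjusted p = 1.8e-08), and Itga1 (chromosome 13, 114953096 to 115101964, overlapping Pelo on the same strand), a collagen receptor subunit, had 131 and 119 CPM against 3.37 and 3.27 (log2 -5.23, SE 0.14, edgeR adjusted p = 7.9e-09). Itga8, whose pair with Itgb1 binds nephronectin, was 19.6-fold lower and Itgb4, the hemidesmosome subunit, 13.6-fold lower. Itgb7 had 0 CPM in both YUMM2.1 EV libraries and 2.48 and 2.52 in YUMM1.7 EV, at least 8.71-fold higher when 3 counts a library are taken as the limit. The remaining calls were lower Itga2, Lama4, Itgb8, Itgb5, Itgav, Itga6 and Lamb2, and higher Lama5, Itga7, Lamc1 and Lamb1. With the doubted labels exchanged 20 members passed, against 48.5% of all tested genes.

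B16-F10 Ctrl held less of most integrins than YUMM2.1 EV, with 20 members lower and 1 higher of 25 tested, against 54.3% of all tested genes (25.0% higher and 29.2% lower) called. The member median was -2.43 on the log2 scale, beside -0.01 over all genes. The member that was higher is Itga9 (chromosome 9, 118606690 to 118901003), a receptor subunit for tenascin C and Vcam1, at 20.04 and 22.9 CPM in B16-F10 Ctrl and 0 in both YUMM2.1 EV libraries, at least 74.6-fold higher. Lamb1 (chromosome 12, 31265234 to 31329644), a laminin beta chain, had 2.21 and 1.99 CPM against 288 and 328, 149-fold lower (log2 -7.22, SE 0.14, edgeR adjusted p = 5.5e-10). Itga3 (chromosome 11, 95044474 to 95076801), the subunit of a laminin receptor, was 44.7-fold lower and Itga7, another laminin receptor subunit, 44.4-fold lower. Itga8 had 2 counts in all in B16-F10 Ctrl, 0.0959 CPM in replicate 1 and 0 in replicate 2, against 132 and 64.7 CPM in YUMM2.1 EV, a ratio of 2126 between YUMM2.1 and B16-F10 with a counting interval from 588 to 17570. Itga2 likewise had 0.0959 and 0 CPM against 8.01 and 6.60. With the doubted labels exchanged 20 members passed, against 61.7% of all tested genes. In aC3 EV against YUMM2.1 EV, 1 of 25 members passed, against 1.75% of all tested genes (0.441% higher and 1.3% lower). It is Itga1, at 77.7 and 78.2 CPM against 131 and 119 in YUMM2.1 EV (log2 -0.67, SE 0.10, edgeR adjusted p = 0.0113), and this call was lost without aC3 EV replicate 1 (0 members), without aC3 EV replicate 2 (0) while 2 and 3 members passed without YUMM2.1 EV replicate 1 or replicate 2. With the doubted labels exchanged 7 members passed, against 9.76% of all genes, and without both libraries 3 passed, against 5.84%. The line and any difference in culture or sequencing between the sets of libraries cannot be told apart.

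Adding dHLH-Bmal1 to YUMM2.1 cells went with a broad change of integrin genes. Of 22 tested members, 12 passed edgeR's test, 7 lower and 5 higher than in EV, against 13.2% of all tested genes (6.51% higher and 6.72% lower). The median log2 fold change over the members was 0.13, beside -0.01 over all genes, since the calls lay on either side. Lower were Itgb3, Itga8, Itga1, Itgb8, Lama4, Itga2 and Itga4, and among those higher were Itga3, Itgb5, Itgb1 and Itga6.

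Itgb3, the partner of Itgav in the vitronectin receptor, had 81.4 and 82.9 CPM in EV, 88.8 and 80.1 in WT-Bmal1 and 5.66 and 8.35 in dHLH-Bmal1 cells. It was 11.6-fold lower with dHLH-Bmal1 than in EV (log2 -3.54, SE 0.21, edgeR adjusted p = 0.000621), and both dHLH-Bmal1 libraries lay far below the other 4. Itga8 (chromosome 2, 12106632 to 12301922, overlapped on the other strand by an antisense gene) had 132 and 64.7 CPM in EV and 10.3 and 9.997 in dHLH-Bmal1 cells (log2 -3.26, SE 0.37, edgeR adjusted p = 0.00353), a fall larger than the spread between the EV libraries. Itga1 had 131 and 119 CPM in EV and 28.3 and 29.2 in dHLH-Bmal1 cells (log2 -2.10, SE 0.13, edgeR adjusted p = 0.000841). Itgb8, which with Itgav binds latent TGF-beta, had 23.9 and 11.03 CPM in EV and 4.24 and 4.35 with dHLH-Bmal1 (log2 -2.01, SE 0.44, edgeR adjusted p = 0.0282). In these 4 genes, picked among the called ones, the EV and dHLH-Bmal1 libraries did not overlap, which adds nothing to the test.

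Among the genes that were higher, Itga3 had 16.5 and 33.3 CPM in EV, 19.3 and 27.9 in WT-Bmal1 and 82.9 and 100.4 in dHLH-Bmal1 cells (log2 1.91 against EV, SE 0.34, edgeR adjusted p = 0.0145). Itgb5 (chromosome 16, 33829665 to 33949338), another partner of Itgav, had 21.5 and 24.8 CPM in EV and 51.6 and 51.2 in dHLH-Bmal1 cells. Itgb1 and Itga6, the most abundant subunits, were higher by 0.46 and 0.44 on the log2 scale. Lama4 (chromosome 10, 38965515 to 39110188), the laminin alpha chain of vessels and mesenchyme, had 292 and 268 CPM in EV and 74.6 and 73.6 with dHLH-Bmal1, and Itga4 had 306 and 328 against 109 and 101. Itgav itself, at 99.8 and 112 CPM in EV and 99.1 and 135 in dHLH-Bmal1 cells, did not pass the test. The plots of CPM by library place these genes across the YUMM2.1 and aC3 groups.

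**Figure D2:**
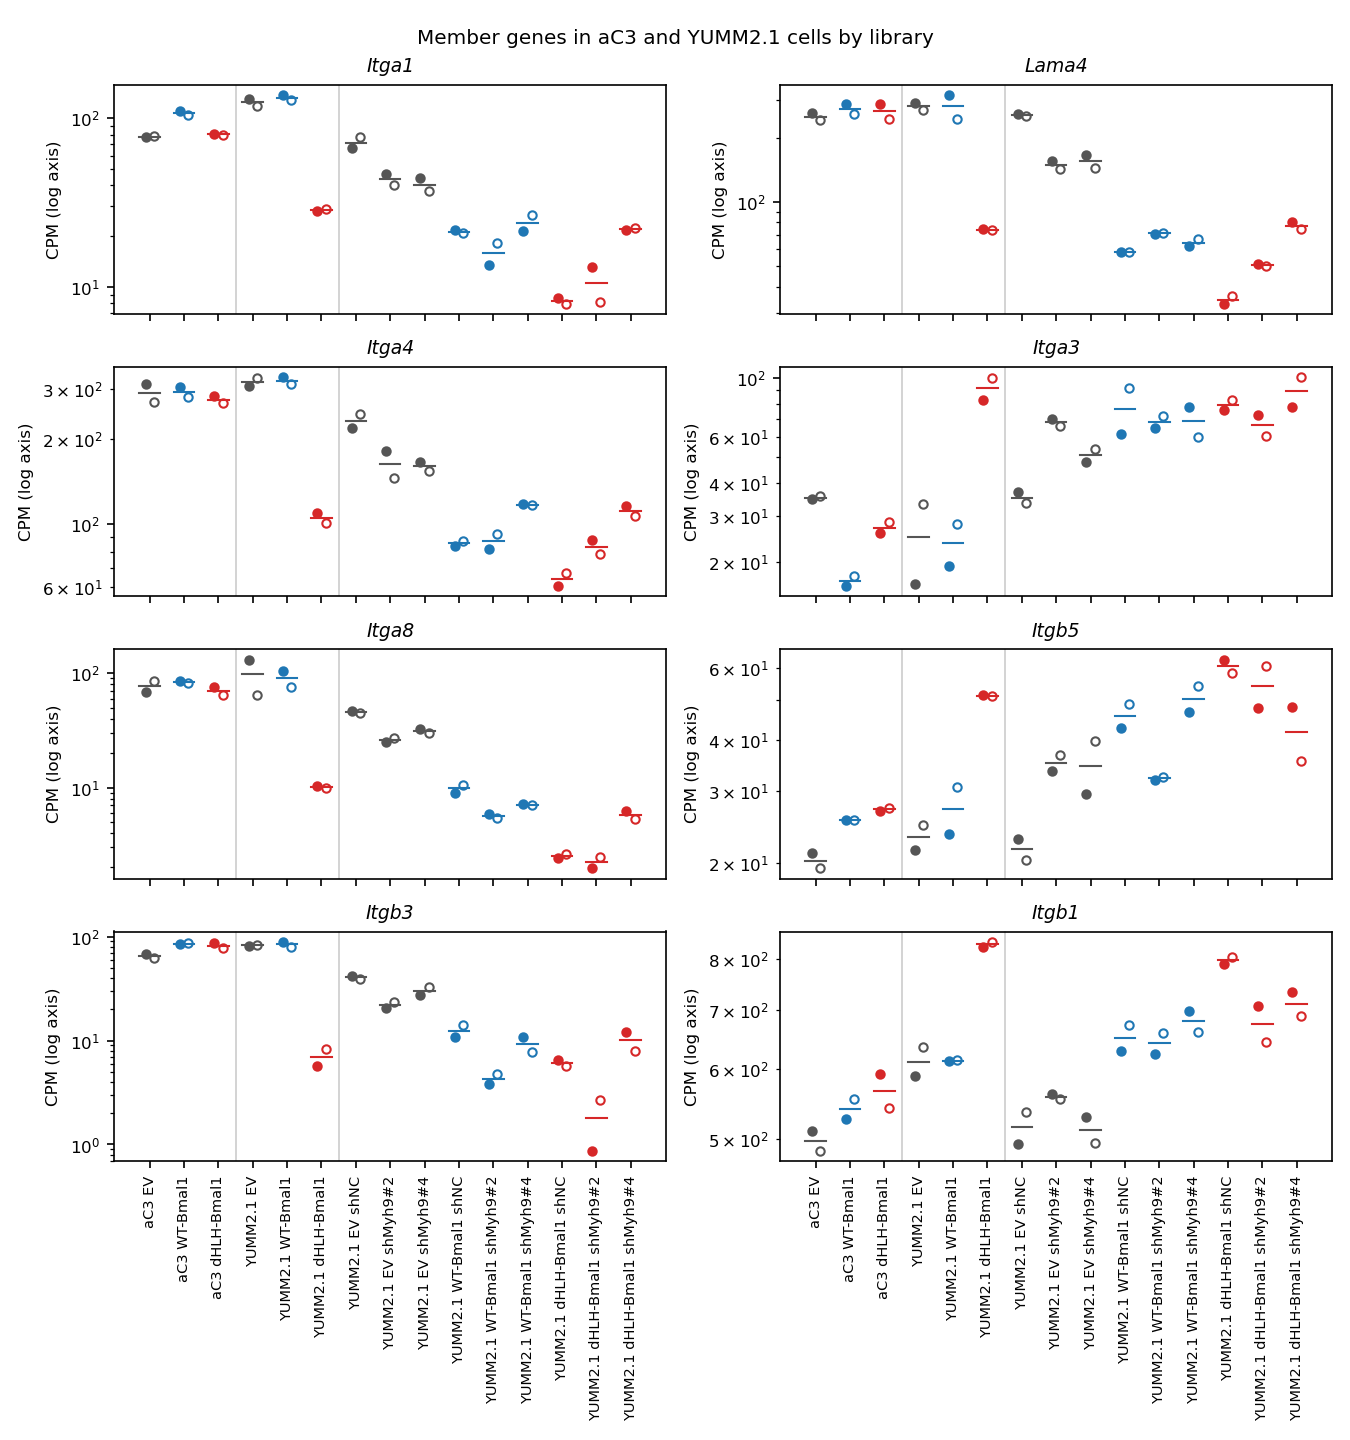
CPM on a log axis of 8 members in the aC3, YUMM2.1 and hairpin groups, with filled points for replicate 1, open points for replicate 2 and a line at the group mean. Itga1, Itga4, Itga8, Itgb3 and Lama4 are low in YUMM2.1 dHLH-Bmal1 and in the WT-Bmal1 and dHLH-Bmal1 groups with a hairpin, while Itga3 and Itgb5 are high there, and the aC3 groups stay near YUMM2.1 EV.

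The number of calls depended on single libraries. Without EV replicate 1, 6 members passed, and without dHLH-Bmal1 replicate 1 or replicate 2, 7 passed. Itgb3, Itga8, Itga1, Lama4 and Itga4 passed without any 1 of the 4 libraries, whereas Itga6 and Itgb1 passed in none of these fits. With the replicate number as a block 13 members passed, against 27.1% of all tested genes. With the 2 doubted labels exchanged, 13 members passed against 28.7% of all genes, and without both libraries 10 passed against 11.9%, where Itga6 and Itgb1 had edgeR adjusted p-values of 0.416 and 0.299. Against WT-Bmal1, dHLH-Bmal1 cells again had 12 members past the threshold, against 13.0% of all tested genes (6.44% higher and 6.6% lower). This comparison uses the same dHLH-Bmal1 libraries, and without WT-Bmal1 replicate 1, dHLH-Bmal1 replicate 1 or dHLH-Bmal1 replicate 2 it had 5, 6 and 6 calls. With the replicate block it had 14, against 26.0% of all tested genes, and with the labels exchanged 13, against 18.9%. WT-Bmal1 against EV had 0 of 22 members past the threshold, with 0.0% of all tested genes called by edgeR. At an unadjusted p under 0.05 there were 0 members and 98 genes, and DESeq2 called 0 members and 1 gene. The count stayed at 0 members with the labels exchanged, where 0.705% of genes passed, and without both libraries, where 0.269% passed.

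Sox10 and mesenchymal genes moved in the same libraries. Sox10 fell by 2.82 on the log2 scale with dHLH-Bmal1 (SE 0.16, edgeR adjusted p = 0.000621), from 504 and 485 CPM in EV to 66.0 and 72.1, while the other 8 melanocyte genes of the list summed to 14.9 and 14.3 CPM in EV and 15.1 and 20.9 in dHLH-Bmal1 cells. The 7 fibroblast and mesenchymal genes summed to 300.5 and 267 CPM in EV and 869 and 671 with dHLH-Bmal1, with Lum at no more than 5 counts in any library. The 9 leukocyte genes summed to 1.75 and 3.03 CPM and to 16.6 and 20.7, mostly from Laptm5, while Cd3e had 0 counts and Ptprc at most 6 in any library. In bulk libraries, fewer cells of a type and less RNA per cell cannot be told apart. The part of these marker changes in the member changes was not tested.

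The effect of dHLH-Bmal1 on the members differed between the lines. In aC3 cells, 5 of 23 tested members passed against EV, against 10.9% of all tested genes (4.79% higher and 6.09% lower), with a member median of 0.14 on the log2 scale beside 0.01 over all genes. Itga2, a collagen receptor subunit, had 7.90 and 8.01 CPM in EV and 13.5 and 12.2 in dHLH-Bmal1 cells (log2 0.69, SE 0.19, edgeR adjusted p = 0.0345). Itgb3 was also higher, at 67.8 and 62.6 CPM in EV and 86.0 and 78.1 with dHLH-Bmal1 (log2 0.32, SE 0.09, edgeR adjusted p = 0.0387). Lamb2 and Itgb5 were higher by 0.42 and 0.41, and Lamc1 fell by 0.35. No call of this comparison held without aC3 EV replicate 1 (0 members), aC3 EV replicate 2 (0) or dHLH-Bmal1 replicate 1, where the 1 member called was Lama5, and DESeq2's Wald test called 0.

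In YUMM1.7 cells, 0 of 22 members passed edgeR's test with dHLH-Bmal1, against 0.63% of all tested genes (0.21% higher and 0.42% lower), and 0 with WT-Bmal1, against 0.138% (0.0434% higher and 0.0941% lower). At an unadjusted p under 0.05 there were 3 of the 22 members in each comparison. Of 13816 tested genes, 1428 were under it with dHLH-Bmal1 and 1423 with WT-Bmal1. DESeq2 called 0 members in each. The member medians were -0.05 and -0.03 on the log2 scale, beside 0.00 over all genes in both. Itgb3 and Itga4 were low there, with at most 2.17 and 1.59 CPM in any YUMM1.7 library, but Itgb1, Itga6, Lamb1, Lamc1 and Lama5 were well counted and differed from EV by at most 0.19 on the log2 scale.

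The difference between lines was tested directly, in a fit of all 18 libraries of these constructs. The dHLH-Bmal1 effect in YUMM2.1 differed from that in aC3 in 14 of 24 members, against 15.5% of all tested genes (6.61% higher and 8.92% lower), and from that in YUMM1.7 in 9 of 24, against 12.4% (6.56% higher and 5.86% lower). Both tests use the same YUMM2.1 libraries. For Itgb3 the effects differed by -3.89 on the log2 scale from aC3 (SE 0.23, edgeR adjusted p = 9.4e-08) and by -3.80 from YUMM1.7 (SE 0.39, edgeR adjusted p = 2.7e-05). For Itga8 the differences were -3.12 and -3.19, for Itga1 -2.15 and -2.41, for Lama4 -1.997 and -1.87, and for Itga3 2.29 and 1.96. Each of these 5 genes passed in both tests without any single library, with the doubted labels exchanged and without both of those libraries. Of the 12 members called in YUMM2.1 and the 5 in aC3, 3 were called in both. Itgb5 had the same direction (8.33% of the first list and 20% of the second), and Itga2 and Itgb3 had opposite directions. The overlap over all genes was not counted.

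**Figure D3:**
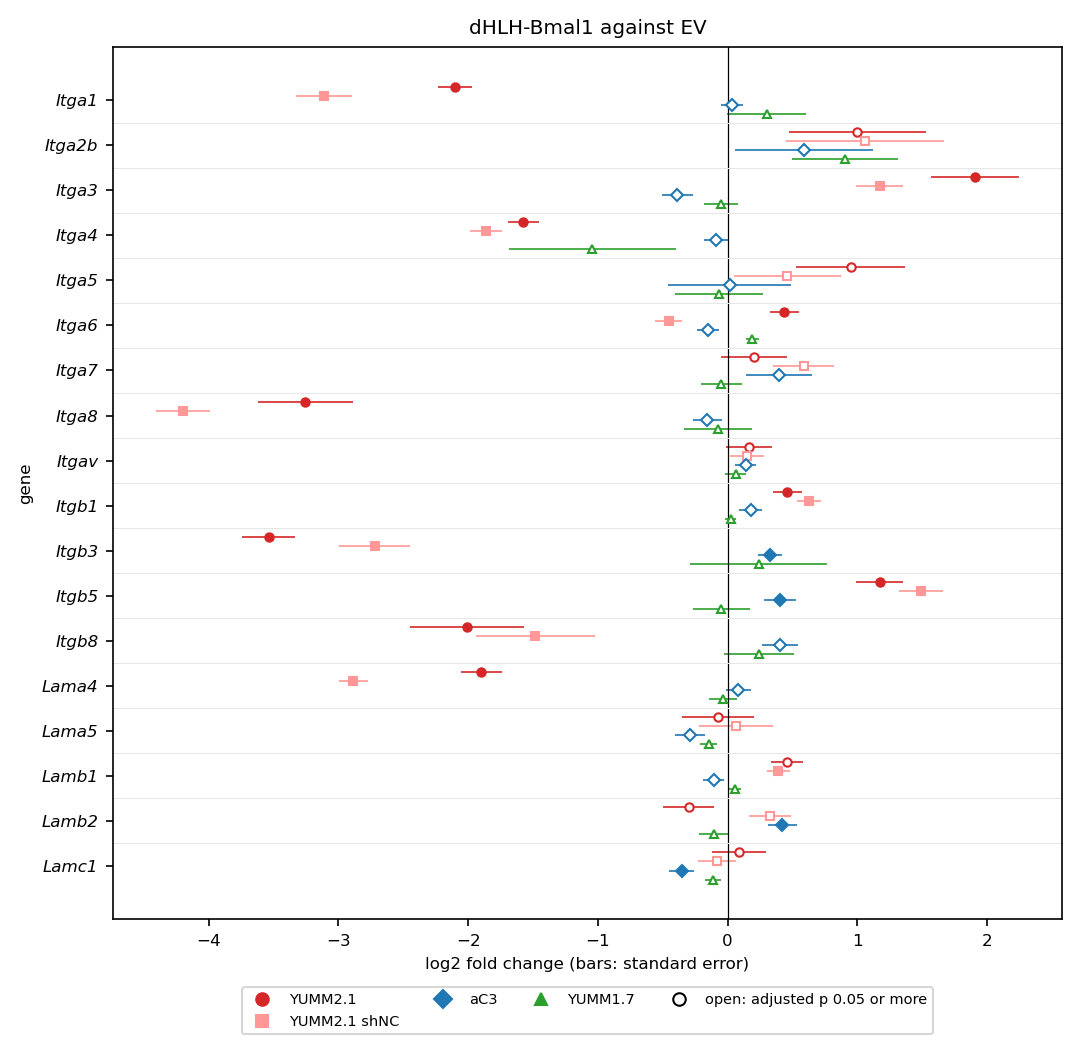
Log2 fold change of dHLH-Bmal1 against EV, with its standard error as a bar, for members with a mean of at least 10 counts in all 4 settings: YUMM2.1, YUMM2.1 with shNC, aC3 and YUMM1.7. Filled symbols passed the edgeR threshold, and the YUMM2.1 and YUMM2.1 shNC symbols for Itga1, Itga4, Itga8, Itgb3, Itgb8 and Lama4 lie below -1 while the aC3 symbols lie near 0.

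The aC3 libraries labelled WT-Bmal1, in which Arntl counts were lower than in EV, had 6 of 23 members called against aC3 EV, against 11.2% of all tested genes (4.92% higher and 6.28% lower), with a member median of 0.11 beside 0.01. Itga3 was lower, at 34.7 and 35.6 CPM in EV and 16.2 and 17.7 with WT-Bmal1 (log2 -1.06, SE 0.12, edgeR adjusted p = 0.000143), and it passed in every alternative. Itgb8 had 17.7 and 16.8 CPM in EV and 25.2 and 27.5 with WT-Bmal1 (log2 0.60, SE 0.14, edgeR adjusted p = 0.0127). Itga1, at 77.7 and 78.2 CPM in EV, rose to 111 and 105 (log2 0.46, SE 0.08, edgeR adjusted p = 0.00302). Lamb2 and Itgb3 were higher by 0.44 and 0.38, and Lamb1 fell by 0.34. Without aC3 EV replicate 1, aC3 EV replicate 2, WT-Bmal1 replicate 1 or WT-Bmal1 replicate 2, the count was 1, 2, 3 and 2. Against dHLH-Bmal1 in the same clone, 2 members passed, against 0.877% of all tested genes (0.442% higher and 0.435% lower). These were Itga1, higher by 0.43 (SE 0.08, edgeR adjusted p = 0.0308), and Itga3, lower by a log2 value of -0.67 (SE 0.13, edgeR adjusted p = 0.0218), and both calls were lost without WT-Bmal1 replicate 1 (0 members) or replicate 2 (0).

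YUMM2.1 cells that also carried the control hairpin gave a second set of libraries for the same constructs. By the study's methods the hairpins were put into the EV, WT-Bmal1 and dHLH-Bmal1 lines already made. The 2 sets therefore share no library but are not separate additions of the constructs. There dHLH-Bmal1 against EV had 15 of 25 members past the threshold (7 higher and 8 lower), against 26.4% of all tested genes (13.9% higher and 12.5% lower), and WT-Bmal1 against EV also had 15 (8 higher and 7 lower), against 22.3% (11.7% higher and 10.6% lower). The member median was 0.33 on the log2 scale in both, beside 0.02 over all genes. The 2 comparisons share the EV shNC libraries, so their values stand side by side without a test of their likeness.

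Itga8 had 47.0 and 44.9 CPM in EV shNC, 8.997 and 10.6 in WT-Bmal1 shNC and 2.43 and 2.60 in dHLH-Bmal1 shNC cells, a log2 change of -2.23 (SE 0.18, edgeR adjusted p = 8.9e-08) and of -4.2 (SE 0.21, edgeR adjusted p = 9.8e-11). Itga1 had 66.5 and 77.2 CPM in EV shNC, 21.8 and 20.8 after WT-Bmal1 and 8.53 and 7.95 after dHLH-Bmal1, and Lama4 had 259 and 253, then 58.2 and 58.3, then 33.3 and 36.2. In all 3 genes the dHLH-Bmal1 libraries were the lowest and the WT-Bmal1 libraries lay between them and EV. Lama4 fell by 2.14 when WT-Bmal1 was added (SE 0.11, edgeR adjusted p = 3.8e-10) and by 2.88 when dHLH-Bmal1 was added (SE 0.11, edgeR adjusted p = 4.9e-12). Itgb3 had 41.5 and 39.4 CPM in EV shNC, 10.8 and 14.0 after WT-Bmal1 and 6.45 and 5.68 after dHLH-Bmal1. In the other direction, Itgb4 had 1.22 and 1.46 CPM in EV shNC, 5.59 and 3.34 after WT-Bmal1 and 6.66 and 7.30 after dHLH-Bmal1. These genes were picked among the called ones, so a rise or fall larger than the spread between replicates adds nothing to the test.

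Other calls of both comparisons were lower Itga4, Itgb8 and Itga6 and higher Itga10, Itgb5, Itga3 and Itgb1. Itga2 was called lower and Lamb1 higher with dHLH-Bmal1, and Itga7 and Lamb2 higher with WT-Bmal1. Itga10, a collagen receptor subunit, overlaps the protein-coding gene Gm42957 on its strand, and Itga7 overlaps Mettl7b on the other, so reads of these pairs may be shared. With each library left out in turn, 13 to 15 members passed for dHLH-Bmal1 and 10 to 13 for WT-Bmal1. All 12 members called with dHLH-Bmal1 without a hairpin were called with shNC too. Of them 11 had the same direction, 91.7% of that list and 73.3% of the 15. These comparisons share no library, though both rest on the same EV and dHLH-Bmal1 lines. The overlap over all genes was not counted. Itga6 went the other way, 0.44 higher without a hairpin and 0.45 lower with shNC on the log2 scale. The difference of its effects was -0.87 (SE 0.14, edgeR adjusted p = 0.00406) in a test over all 24 YUMM2.1 libraries that was added after the data were seen. In that test Lama4 and Itgb4 also differed, with 3 of 25 members called against 1.2% of all tested genes (0.566% higher and 0.631% lower). With the doubted labels exchanged 6 members were called, against 4.9% of all tested genes.

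The WT-Bmal1 effect differed between the 2 sets as well, with 8 of 25 members called against 6.67% of all tested genes (3.49% higher and 3.19% lower). The effect on Lama4 with shNC differed from that without a hairpin by -2.16 on the log2 scale (SE 0.17, edgeR adjusted p = 3.9e-07), that on Itga8 by -2.13, Itga1 by -1.86, Itgb3 by -1.77, Itga4 by -1.47 and Itga6 by -0.67. The effect on Itgb4 differed by 1.77. These 7 genes kept their sign with the doubted labels exchanged and without both doubted libraries. Itgb4 no longer passed in either setting, and Itga6 not without both libraries. With the labels exchanged 6 members were called, against 6.15% of all tested genes. The EV baselines of the 2 sets were themselves unlike, with Itgb3 at 81.4 and 82.9 CPM without a hairpin and 41.5 and 39.4 with shNC, and Itgb4 at 8.43 and 7.90 against 1.22 and 1.46. The hairpin vector, puromycin selection and any difference in culture or sequencing between the sets go together in this contrast and cannot be told apart. The marker genes moved in these libraries too, Sox10 by -1.74 with WT-Bmal1 and -3.77 with dHLH-Bmal1, and the mesenchymal list from 196 and 166 CPM in EV shNC to 394 and 409.7 after WT-Bmal1 and 719.8 and 694 after dHLH-Bmal1. Their part was not tested.

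In EV cells the hairpin shMyh9#2 went with lower Lama4, Itga1, Itga4, Itga8 and Itgb3 and higher Itga3, Itgb5 and Lamb1. Of these, shMyh9#4 was called for Lama4, Itga1 and Itga4, against the same EV shNC libraries. With shMyh9#2, 9 of 25 members passed (4 higher and 5 lower), against 6.65% of all tested genes (4.2% higher and 2.46% lower), with a member median of 0.11 beside 0.01. Lama4 had 259 and 253 CPM with shNC and 156 and 143 with shMyh9#2 (log2 -0.78, SE 0.10, edgeR adjusted p = 0.000122). Itga3 had 36.8 and 33.5 CPM with shNC and 70.3 and 65.7 with shMyh9#2 (log2 0.95, SE 0.18, edgeR adjusted p = 0.00343), the largest rise among the calls. Itgb3 fell by 0.88 (SE 0.25, edgeR adjusted p = 0.0413), Itga8 fell by 0.82 (SE 0.17, edgeR adjusted p = 0.00545) and Itga1 fell by 0.72 (SE 0.19, edgeR adjusted p = 0.0291). Of the 12 members called with dHLH-Bmal1 without a hairpin, 8 were among these 9 with the same direction (66.7% of the first list and 88.9% of the second). The comparisons share no library, though both rest on the same YUMM2.1 EV line, and the overlap over all genes was not counted. The count rested on every library, since 3, 2, 3 and 3 members passed without EV shNC replicate 1, EV shNC replicate 2, EV shMyh9#2 replicate 1 and EV shMyh9#2 replicate 2, and Lama4 passed each time. Sox10 fell by 0.83 in these libraries (SE 0.10, edgeR adjusted p = 7.6e-05) and by 0.44 with shMyh9#4 (SE 0.10, edgeR adjusted p = 0.0374), and Laptm5 had 3.30 and 3.92 CPM with shNC, 16.6 and 14.6 with shMyh9#2 and 17.6 and 18.1 with shMyh9#4. Their part was not tested.

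The weaker hairpin shMyh9#4 had 3 of 25 members past the threshold in EV cells, against 1.71% of all tested genes (1.45% higher and 0.256% lower). All 3 were lower, Itga1 at 44.0 and 36.9 CPM (log2 -0.84, SE 0.19, edgeR adjusted p = 0.0248), Lama4 at 166 and 145 (log2 -0.73, SE 0.10, edgeR adjusted p = 0.000483) and Itga4 at 166 and 154 (log2 -0.55, SE 0.12, edgeR adjusted p = 0.0168). Only Lama4 passed without EV shNC replicate 1 (1 member), EV shNC replicate 2 (1) or EV shMyh9#4 replicate 2 (1). In WT-Bmal1 cells shMyh9#2 was called for 4 members, against 4.76% of all tested genes (2.35% higher and 2.41% lower), so that the share of members, 16%, stood above the background. Itgb3 had 10.8 and 14.0 CPM with shNC and 3.81 and 4.81 with shMyh9#2 (log2 -1.54, SE 0.28, edgeR adjusted p = 0.00328), and Itgb4 had 5.59 and 3.34 against 10.6 and 13.8 (log2 1.45, SE 0.33, edgeR adjusted p = 0.0167). Itga8 and Lamb2 fell by 0.81 and 0.58. Sox10 fell by 1.48 there (SE 0.11, edgeR adjusted p = 2.4e-07), and its part was not tested. Without WT-Bmal1 shNC replicate 2, 0 of the members passed, and 1 passed without WT-Bmal1 shMyh9#2 replicate 1 or replicate 2. With shMyh9#4 in WT-Bmal1 cells 0 members passed by edgeR, against 0.236% of all tested genes (0.0876% higher and 0.148% lower). At an unadjusted p under 0.05 there were 5 members and 1794 of 14848 tested genes. DESeq2 called Itga4, among 206 genes.

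In dHLH-Bmal1 cells Lama4 was higher with each hairpin, where both hairpins were compared with the same shNC libraries. With shMyh9#2, Lama4 was the 1 member called, against 0.559% of all tested genes (0.296% higher and 0.263% lower), at 50.9 and 50.02 CPM beside 33.3 and 36.2 with shNC (log2 0.53, SE 0.11, edgeR adjusted p = 0.042). This call was lost without any 1 of the 4 libraries, with 0 members called without dHLH-Bmal1 shNC replicate 1, dHLH-Bmal1 shNC replicate 2 or dHLH-Bmal1 shMyh9#2 replicate 1. With shMyh9#4, 8 members passed (6 higher and 2 lower), against 15.1% of all tested genes (6.28% higher and 8.86% lower), with a member median of 0.23 beside 0.00. Itga1 had 8.53 and 7.95 CPM with shNC and 21.8 and 22.4 with shMyh9#4 (log2 1.42, SE 0.23, edgeR adjusted p = 0.00127). Lama4 had 80.1 and 74.6 CPM with shMyh9#4 (log2 1.16, SE 0.11, edgeR adjusted p = 2.8e-05), and Itga8 and Itga4 rose by 1.2 and 0.81. These 4 genes stayed below their EV shNC levels. Lama5, a laminin alpha chain of mature basement membranes, had 55.0 and 48.8 CPM with shNC and 21.8 and 13.9 with shMyh9#4 (log2 -1.57, SE 0.33, edgeR adjusted p = 0.00513). Itgb5 fell by 0.55, and Itgav and Itga6 rose by 0.51 and 0.50. Without dHLH-Bmal1 shNC replicate 1 and without dHLH-Bmal1 shMyh9#4 replicate 2 the count was 4 and 3, and Itga1, Itga4 and Lama4 passed throughout. Sox10 rose by 0.92 in these libraries (SE 0.12, edgeR adjusted p = 0.000469), where it had fallen by 0.90 with shMyh9#2, and its part was not tested.

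The hairpin effects in EV and dHLH-Bmal1 cells were also tested against each other. For shMyh9#2 the effects differed in 4 of 25 members, against 3.29% of all tested genes (2.2% higher and 1.1% lower). Lama4 differed by -1.31 (SE 0.15, edgeR adjusted p = 9.0e-05), Itga4 by -0.87 (SE 0.17, edgeR adjusted p = 0.0073), Itga3 by 1.23 (SE 0.25, edgeR adjusted p = 0.0108) and Lamb1 by 0.50 (SE 0.12, edgeR adjusted p = 0.0348) on the log2 scale. Without EV shNC replicate 2, EV shMyh9#2 replicate 1 or dHLH-Bmal1 shNC replicate 2, 2 members passed. For shMyh9#4 the test was added after the data were seen and uses the same shNC libraries. In it 7 members differed, against 8.51% of all tested genes (5.46% higher and 3.05% lower). Among them were Itga1 by -2.26 (SE 0.30, edgeR adjusted p = 0.000299) and Lama4 by -1.90 (SE 0.15, edgeR adjusted p = 1.9e-06).

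**Figure D4:**
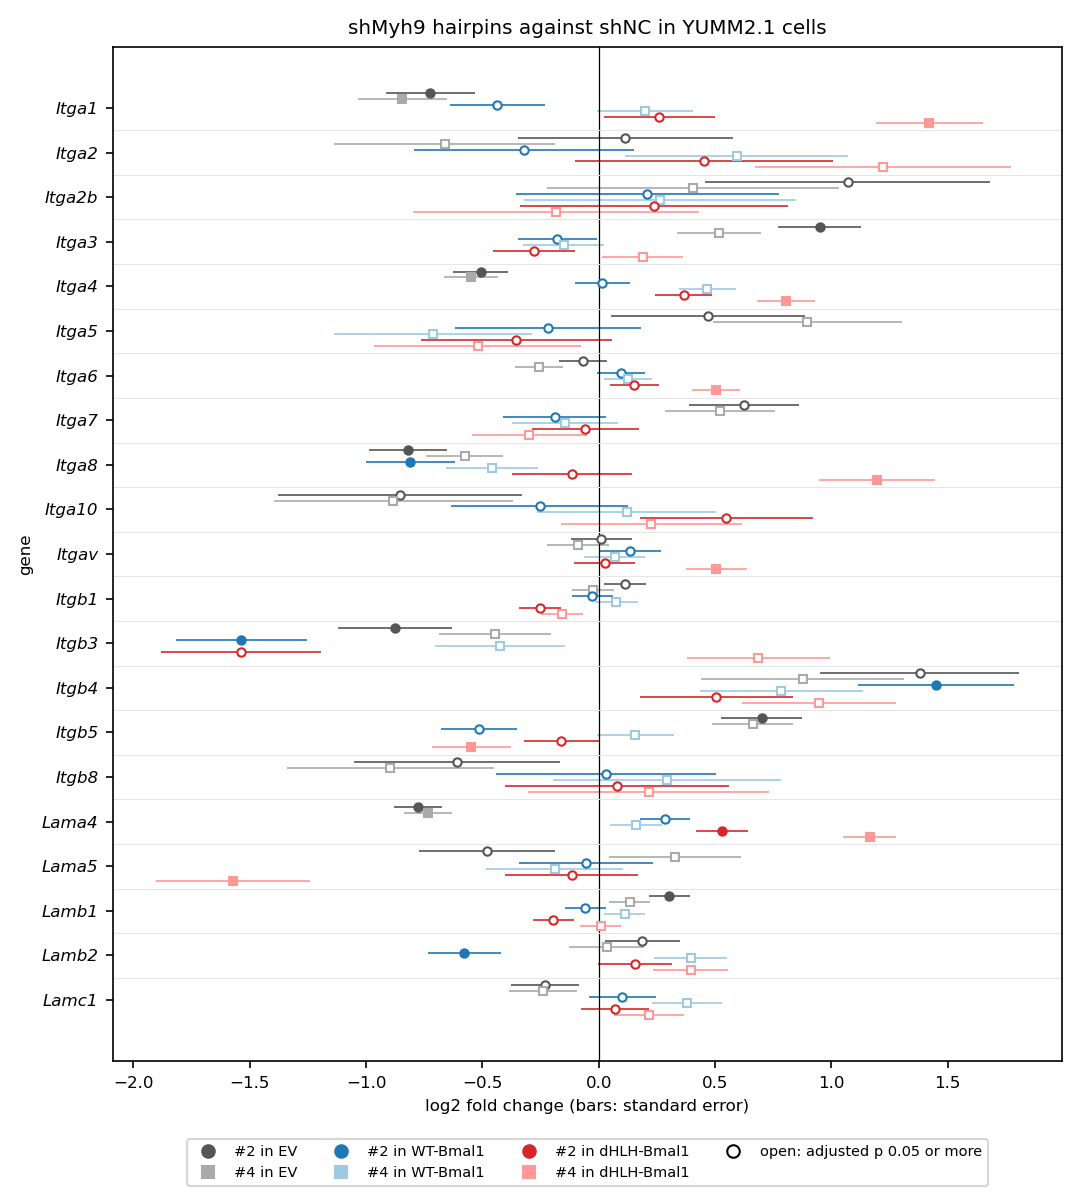
Log2 fold change of each Myh9 hairpin against shNC in YUMM2.1 cells of the 3 constructs, with its standard error as a bar, for members with a mean of at least 10 counts in all 6 comparisons. Filled symbols passed the edgeR threshold, and for Lama4 both EV symbols lie below 0 and both dHLH-Bmal1 symbols above it.

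The laminin alpha chain with most counts differed between groups. Lama4 made up 81.4% and 85.8% of the laminin alpha counts in YUMM2.1 EV and 53.3% and 65.4% in dHLH-Bmal1 cells, with Lama5 making up nearly all of the rest. In the shNC libraries Lama4's share was 83.1% and 84.2% in EV, 55.2% and 60.0% in WT-Bmal1 and 37.7% and 42.6% in dHLH-Bmal1 cells, so that Lama5 was the larger chain in the last group. The share was 62.3% and 43.9% with shMyh9#2 and 78.6% and 83.6% with shMyh9#4 in dHLH-Bmal1 cells. In YUMM1.7 EV it was 16.4% and 16.7%, and in B16-F10 Ctrl 89.2% and 87.1%. Itgb1 took 78.3% to 97.8% of the integrin beta counts in every library. Shares are of counts, and no test was run on them.

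**Figure D5:**
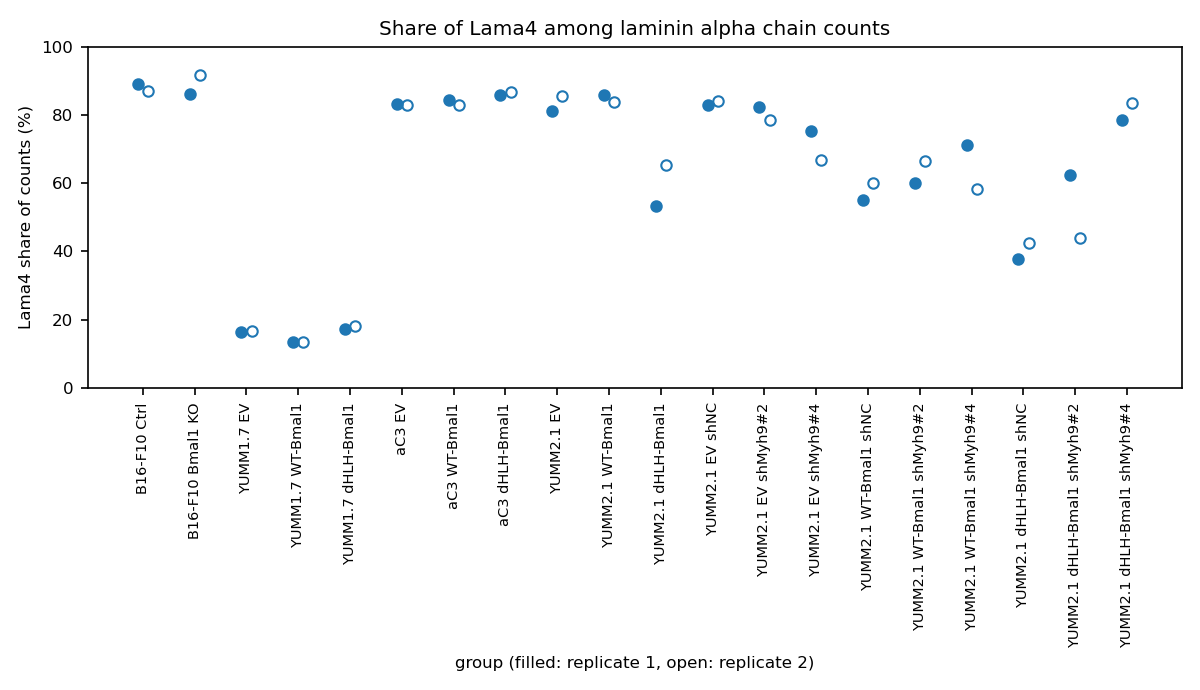
Share of Lama4 among the counts of all laminin alpha chains, in percent, for each group, with a filled point for replicate 1 and an open point for replicate 2. The share lies above 80% in B16-F10, aC3, YUMM2.1 EV and EV shNC libraries, under 20% in YUMM1.7, and falls to 37.7% and 42.6% in YUMM2.1 dHLH-Bmal1 shNC.

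In B16-F10 cells, 1 of 19 tested members passed between the libraries labelled Bmal1 KO and Ctrl, against 0.44% of all tested genes (0.22% higher and 0.22% lower), with a member median of 0.06 beside -0.01. It is Lamb1, at 2.21 and 1.99 CPM in Ctrl and 30.9 and 33.1 in the Bmal1 KO libraries, 15.2-fold higher (log2 3.92, SE 0.24, edgeR adjusted p = 0.0249). It passed in every alternative, with edgeR or DESeq2 adjusted p-values up to 0.0251. Lamb1's share of laminin beta counts was 7.74% and 7.22% in Ctrl and 58.0% and 40% in the Bmal1 KO libraries, where Lamb2, the other beta chain, gave the rest. Without Bmal1 KO replicate 1, 10 members passed, and without Bmal1 KO replicate 2, 4 passed. Itga9, seen in this line, had 20.04 and 22.9 CPM in Ctrl and 22.2 and 28.6 in the Bmal1 KO libraries and did not pass.

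The partners of these genes were counted from lists of integrin adaptors, basement membrane partners and soluble, matrix or cell-surface ligands of integrins. In YUMM2.1 dHLH-Bmal1 against EV, 2 of 18 adaptors, 7 of 16 basement membrane partners and 10 of 17 ligands passed, beside 13.2% of all tested genes, so that the share of adaptors was not above that of all genes. The adaptors Kank2, which binds talin, and Tln2, a talin, were higher by 0.75 and 0.67 on the log2 scale. Col15a1, a basement membrane zone collagen, had 25.9 and 14.5 CPM in EV and 0.471 and 0.353 with dHLH-Bmal1 (log2 -5.54, SE 0.49, edgeR adjusted p = 0.00169), and Col4a4 and Nid2 fell by 2.72 and 2.49 while Smoc2 rose by 3.44. Of the 10 ligands called, 8 were higher, with Col1a1 at 6.09 and 16.6 CPM in EV and 249 and 229 with dHLH-Bmal1 (log2 4.45, SE 0.52, edgeR adjusted p = 0.00399), and Col1a2, Fbn1 and Thbs1 higher by 5.08, 4.2 and 2.35. The median over the ligands was 0.96, beside -0.01 over all genes, and over the adaptors -0.05. Col1a1, Col1a2 and Col3a1 stand in both the ligand list and the mesenchymal marker list.

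With shNC, dHLH-Bmal1 against EV had 10 of 19 adaptors called (6 higher and 4 lower), 7 of 17 basement membrane partners (2 higher and 5 lower) and 12 of 17 ligands (10 higher and 2 lower), beside 26.4% of all tested genes. Fermt2, a kindlin, was lower by a log2 value of -1.12 and Kank2 higher by 1.02. In EV cells shMyh9#2 raised Col1a1 by 3.40, Vcam1, a ligand of Itga4 with Itgb1, by 1.30, and Fn1, fibronectin, by 0.97, among 4 ligands higher and 2 lower of 17, beside 6.65% of all tested genes. In aC3 dHLH-Bmal1 against EV, 2 of 18 adaptors, 1 of 14 basement membrane partners and 3 of 16 ligands passed, beside 10.9% of all tested genes, with Tnc, tenascin C, higher by 1.28. YUMM1.7 dHLH-Bmal1 against EV had 0 of 18 adaptors, 0 of 16 basement membrane partners and 2 of 17 ligands past the threshold of edgeR, beside 0.63% of all tested genes. In B16-F10, where 0.44% of all tested genes were called, 0 of 18 adaptors and 0 of 15 ligands passed, and of the 15 basement membrane partners Col4a1, a chain of type IV collagen, passed beside Lamb1, at 1.15 and 0.872 CPM in Ctrl and 11.3 and 12.6 in the Bmal1 KO libraries (log2 3.55, SE 0.31, edgeR adjusted p = 0.0326).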

How the data were processed

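Gene counts of 40 libraries were used as deposited. The authors sequenced QuantSeq 3′ libraries as single reads, aligned them with bowtie2 to mm10 and counted reads per gene with RSEM (version 1.2.3 per the labels), and the deposited values are whole-number counts for 51789 genes. Strand use and the annotation release are not given in the sources used here. Symbols and positions were matched by gene ID to GENCODE M21 (GRCm38), where 193 genes found no match.

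Counts were normalized by TMM, filtered for low counts by filterByExpr and fitted with edgeR 4.0.16 in R 4.3.3 (quasi-likelihood test, Benjamini-Hochberg adjusted p under 0.05 over all tested genes), 1 fit for each experiment with all its groups. This took 4 libraries for B16-F10, 6 each for aC3, YUMM2.1 and YUMM1.7, 18 for the hairpins, 8 for the lines, 18 for the constructs and 24 for YUMM2.1 with and without shNC. Standard errors are the log2 fold change divided by the root of the F statistic. The procedure was tested on simulated data. Of 26 comparisons, 3 were added after the data were seen, as were the exchange and removal of the 2 doubted libraries. With 2 libraries a group, a permutation test of 1 gene cannot go below a two-sided p of 0.333, so no such test is given and p-values come from models fitted across all genes. Depth was 3643332 to 22970049 counts a library, so that 1 CPM was at least 3.64 counts.

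In each comparison, full values were planned for at most 6 called members of largest absolute log2 fold change whose mean reached 10 counts, and at most 4 called genes of each list. Values of other members, Lama4, Itga4 and Itgb5 in YUMM2.1 cells among them, were chosen after they were seen. Values of 1 member are not reported here, though the counts of members include it. The members and lists were chosen with earlier results of these data known. A fold against a group at 0 is a lower bound against 3 counts in each of its libraries.

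The labels give the groups the same replicate numbers. Deviations of same-numbered libraries from their group means correlated at 0.353 on average in YUMM2.1, from 0.199 to 0.442 over the 3 pairs of groups. This pairing is seen in the data and rests on no stated day or culture. An exchange of the 2 doubted labels would tie the deviations of EV to those of WT-Bmal1, but it moves no dHLH-Bmal1 library. Its part in these correlations was not tested, so the pairing is not settled. In aC3, YUMM1.7 and the hairpin libraries the mean correlations were 0.0598, -0.00583 and -0.00441. Alternatives were DESeq2 1.42.0 (size factors and Wald test), no filter, a replicate block, 1 fit of all 40 libraries and each library left out.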

Additional observations from a re-analysis of the deposited data

Results flagged for a closer look

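Each of the following log2 differences between 2 effects of the same contrast passed the edgeR threshold over all tested genes in a test of the difference itself. They are given as values, and no explanation was weighed.

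The dHLH-Bmal1 effect in YUMM2.1 cells, less that in aC3 cells, was -3.89 for Itgb3, -3.12 for Itga8, -2.44 for Itgb8, -2.42 for Itga2, -2.15 for Itga1, -1.997 for Lama4, -1.50 for Itga4 and -0.74 for Lamb2. It was 2.29 for Itga3, 0.75 for Itgb5, 0.58 for Itga6 and 0.55 for Lamb1. Itgb2, the leukocyte beta subunit, also differed by edgeR (adjusted p = 0.0129) on few counts with YUMM2.1 dHLH-Bmal1 at 0 in both libraries, so no fold is given. Less the effect in YUMM1.7 cells, it was -3.80 for Itgb3, -3.19 for Itga8, -2.41 for Itga1, -2.26 for Itgb8 and -1.87 for Lama4, and 1.96 for Itga3, 1.22 for Itgb5, 0.43 for Itgb1 and 0.39 for Lamb1.

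The WT-Bmal1 effect in YUMM2.1 cells with shNC, less that without a hairpin, was -2.16 for Lama4, -2.13 for Itga8, -1.86 for Itga1, -1.77 for Itgb3, -1.47 for Itga4, -0.67 for Itga6 and 1.77 for Itgb4. The same difference for dHLH-Bmal1 was -0.97 for Lama4, -0.87 for Itga6 and 2.28 for Itgb4.

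The shMyh9#2 effect in EV cells, less that in dHLH-Bmal1 cells, was -1.31 for Lama4, -0.87 for Itga4, 1.23 for Itga3 and 0.50 for Lamb1. For shMyh9#4 it was -2.26 for Itga1, -1.90 for Lama4, -1.77 for Itga8, -1.35 for Itga4, -0.76 for Itga6, 1.21 for Itgb5 and 1.90 for Lama5.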

How the results depend on the processing

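Of 278 counts of called members under an alternative, 217 were within 1.5 times the main count, and of 1877 values of the members reported here 1630 kept direction and call and 247 lost the call. DESeq2's size factors left all 26 counts within 1.5 times. DESeq2's Wald test gave 2 members for B16-F10 Bmal1 KO, 0 for aC3 dHLH-Bmal1 against EV, 1 for shMyh9#4 in WT-Bmal1 and 2 for shMyh9#2 in dHLH-Bmal1 cells. Over all tested genes it called 431, 988, 206 and 155 in these comparisons, where edgeR called 64, 1501, 35 and 83. With no filter there were 2 for B16-F10, 1 (Itga6) for YUMM1.7 dHLH-Bmal1, 5 for shMyh9#4 in EV, 2 for shMyh9#2 in dHLH-Bmal1 and 2 for aC3 EV against YUMM2.1 EV. A single fit of all 40 libraries gave 8 for B16-F10, 2 for aC3 WT-Bmal1 and 0 for aC3 dHLH-Bmal1 against EV, 0 for aC3 WT-Bmal1 against dHLH-Bmal1, 2 for shMyh9#2 in WT-Bmal1, 2 for shMyh9#2 in dHLH-Bmal1 and 2 for aC3 EV against YUMM2.1 EV. For no filter, the single fit and the fits with a library left out, the share of all genes is not given here. Member counts there cannot be set against it. The cause of these shifts was not tested.

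With the 2 doubted labels exchanged, 7 members passed for aC3 EV against YUMM2.1 EV, where 9.76% of all tested genes passed. For the shNC difference of dHLH-Bmal1 the count was 6, where 4.9% of all tested genes passed. Without both libraries the counts were 3 and 5, and 5 for the shNC difference of WT-Bmal1.

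With the replicate block, YUMM2.1 dHLH-Bmal1 had 13 members against EV and 14 against WT-Bmal1, while the share of all tested genes rose to 27.1% and 26.0%, and WT-Bmal1 had 0. All 26 counts stayed within 1.5 times. Of 169 calls of these members 3 were lost, namely Itgb3 with shMyh9#2 in EV (edgeR adjusted p = 0.0507), Lamb2 with shMyh9#2 in WT-Bmal1 (0.055) and Lamb2 in YUMM1.7 EV against YUMM2.1 EV (0.0584). The block lost no other call and gained 8, Lamb1 in YUMM2.1 dHLH-Bmal1 against EV, Lamb1 and Lamb2 against WT-Bmal1, Itgb4, Itga3 and Itgav in aC3 and Itga3 and Itgb5 in the shNC difference of WT-Bmal1. In the hairpin libraries, where the samples share only a number, 3 of 36 pairs correlated over 0.1.

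With each library left out, the counts ranged from 1 to 10 for B16-F10, 1 to 3, 0 to 7 and 0 to 2 for aC3 WT-Bmal1, dHLH-Bmal1 and their difference, 0 to 0, 6 to 9 and 5 to 9 for YUMM2.1 WT-Bmal1 and dHLH-Bmal1 against EV and dHLH-Bmal1 against WT-Bmal1, and 0 to 0 in YUMM1.7. With shNC they were 10 to 13 for WT-Bmal1 and 13 to 15 for dHLH-Bmal1. For shMyh9#2 in EV, WT-Bmal1 and dHLH-Bmal1 they were 2 to 3, 0 to 3 and 0 to 1, and for shMyh9#4 they were 1 to 4, 0 to 0 and 3 to 7. For YUMM1.7, B16-F10 and aC3 against YUMM2.1 they were 15 to 18, 20 to 22 and 0 to 3. For the differences between effects they were 11 to 13 (aC3), 7 to 10 (YUMM1.7), 2 to 4 (shMyh9#2), 5 to 7 (shMyh9#4), 6 to 10 (WT-Bmal1 with shNC) and 1 to 4 (dHLH-Bmal1 with shNC). Depth limits the members under 1 CPM, 15 by their median, which were mostly not tested.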

Other observations

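Among members with low counts, Itgb7, a leukocyte beta subunit, had 0 counts in the 4 YUMM2.1 EV and WT-Bmal1 libraries without a hairpin and 38 and 43 counts in the YUMM2.1 WT-Bmal1 shMyh9#2 libraries. Itga2b and Lamb3 were tested in some of the 26 comparisons and passed in none. Of the 37 members, 24 passed in at least 1 comparison, and 17 were tested in all of them.

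Itgb1 was the least variable abundant integrin between groups, with group means from 253 to 830 CPM, a ratio of 3.28, and Lamb2 the least variable laminin chain of its level, from 23.8 to 51.0 CPM, a ratio of 2.14. Itga3 had 4 and 0 counts in the B16-F10 Bmal1 KO libraries and a mean of 91.7 CPM in YUMM2.1 dHLH-Bmal1. Itga4 ranged 462-fold between group means, from 0.694 CPM in YUMM1.7 dHLH-Bmal1 to 321 in YUMM2.1 WT-Bmal1.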
